A study of Mus musculus with 13 samples.

Results

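The 10 genes examined here code for heat shock proteins and their partners: *Hsp90aa1*, *Hsp90ab1*, *Hspa8*, *Hspa1a*, *Hspa1b*, *Hsph1*, *Dnajb1*, *Hspd1*, *Hspe1* and *Hspb1*. They were picked by symbol, and all 10 were present among the 24079 genes of the RNA-seq count table. RNA-seq was done on CGR8 cells, a feeder-free mouse embryonic stem (ES) cell line kept on gelatin with serum and LIF, with 3 control libraries (0.5% DMSO, 48 h) and 3 libraries of cells exposed for the same time to 10 μM PhenDC3, a ligand that binds and stabilizes G-quadruplexes (G4). Sites where DNA replication starts were read from 5 lists of peaks of short nascent strand sequencing (SNS-seq) in the same cells and conditions, 3 control and 2 PhenDC3. Both conditions used the same line and the same solvent, and no second line was examined here.

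Molecular chaperones bind unfolded or partly folded proteins and help them to fold, assemble or be degraded. The Hsp70 proteins work in ATP-driven cycles that J-domain proteins start and nucleotide exchange factors end, and they pass part of their clients to Hsp90, whose co-chaperones choose the client and set the pace of its cycle. In mitochondria the Hsp60 and Hsp10 proteins form a folding chamber, and small heat shock proteins hold unfolded proteins without using ATP. Many of these genes are switched on by heat shock factor 1 (HSF1), which binds heat shock elements, arrays of GAA and TTC triplets that alternate with 2 bases between them. Others are constitutive, and pluripotent cells are known for a high capacity to fold proteins.

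The RNA-seq libraries held 22232014 to 29486502 counts on genes, and 13972 genes passed the filter on low counts, all 10 chaperone genes included. Across all these genes, 18.0% were called higher with PhenDC3 and 18.7% lower by the quasi-likelihood test of edgeR at an adjusted p of at most 0.05 (Benjamini-Hochberg over all genes tested), so that a call was a common outcome. All 10 ES cell markers were expressed, with a summed level of 7623 to 8496 normalized CPM (counts relative to the scaled library total) in control and 8621 to 10040 in PhenDC3, and *Pou5f1*, *Tdgf1* and *Utf1* fell while *Nanog*, *Klf4*, *Dppa5a* and *Fgf4* rose. Fibroblast markers were low in both conditions, with sums of 8.39 to 8.54 CPM in control and 6.02 to 8.53 CPM in PhenDC3, 1 of 6 was at 0 in all libraries, and *Thy1* fell. The sums of 6 endoderm markers were 42.5 to 97.3 CPM in control and 83.1 to 139.9 CPM in PhenDC3, with 4 called higher, and those of 5 trophectoderm markers 76.7 to 105.2 CPM and 170.0 to 224.2 CPM, with 3 called higher. Neural markers summed to 87.1 to 94.3 CPM against 93.0 to 115.5 CPM, with *Nes* higher and *Pax6* lower, and mesoderm markers to 6.34 to 7.35 CPM against 5.76 to 6.14 CPM. In bulk RNA, fewer cells of a type and less RNA per cell cannot be told apart, and what part these markers had in the changes described here was not tested. The scaling factors of the libraries also separated the conditions, at 0.922 to 0.987 in control and 1.04 to 1.07 in PhenDC3, and dividing by the library total alone moved the median log2 fold change of all genes from 0.01 to 0.16 and the share of calls that were higher from 49.0% to 68.0%.

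The levels of the 10 genes spread over several orders of magnitude. Per kb of exon, *Hsp90ab1* (mean of the 6 libraries 2763 CPM per kb), *Hsp90aa1* (2469) and *Hspa8* (2462) stood at ranks 14, 22 and 23 of 13949 genes with an exon length. Next came the mitochondrial chaperonin genes *Hspe1* (596.7 CPM per kb) and *Hspd1* (514.9) and the small heat shock gene *Hspb1* (281.0), followed by *Hsph1* (54.9) and *Dnajb1* (16.6). The stress-inducible Hsp70 copies were at the bottom, *Hspa1b* at 0.7995 CPM per kb and *Hspa1a* at 0.286, above 18.4% and 7.99% of the genes ranked. Each neighbour in this order was higher in all 6 libraries than the next, except that *Hsp90ab1* exceeded *Hsp90aa1* in 4 libraries, *Hsp90aa1* exceeded *Hspa8* in 3 and *Hspe1* exceeded *Hspd1* in 5, so that these neighbours did not separate beyond their spread over all libraries. Within PhenDC3 libraries alone, *Hsp90aa1* lay above *Hspa8* in all 3 (2821 to 2911 against 2020 to 2500 CPM per kb), whereas in control *Hspa8* had 2428 to 2875 and *Hsp90aa1* 1738 to 2314.

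Of the 10 genes, 1 was called higher (*Hsp90aa1*) and 1 lower (*Hspb1*) with PhenDC3, against the 18.0% and 18.7% of all genes, and 8 were not called. The median log2 fold change of the 10 was -0.09, beside 0.01 for all genes tested, with values from -0.70 to 0.48. The conditions did not overlap for 3 of the 10, *Hsp90aa1* upward and *Hspb1* and *Hspe1* downward. Over all genes, 25.0% had PhenDC3 libraries entirely above and 25.6% entirely below control. In this fit neither count exceeded its background share, and a missed call does not show that a gene stayed at its control level. With the replicate numbers as a block, 6 of the 10 were called. Of these, 2 were higher (*Hsp90aa1* and *Hsph1*) and 4 lower (*Hspb1*, *Hspa8*, *Hspd1* and *Hspe1*), where 27.2% of all genes were higher and 26.4% lower.

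**Figure D1:**
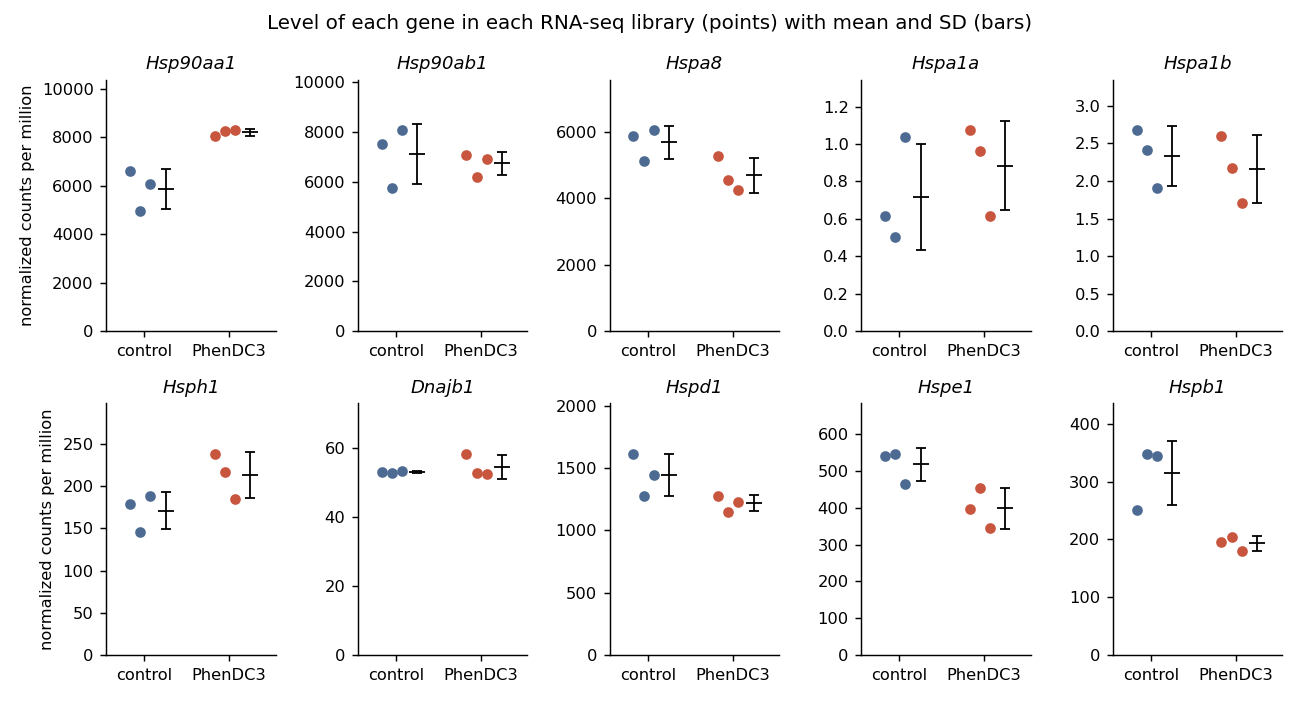
Normalized CPM (vertical axes, each starting at 0) of the 10 genes in the 3 control (blue) and 3 PhenDC3 (red) libraries, with mean and SD beside the points. The points separate by condition for *Hsp90aa1*, *Hspb1* and *Hspe1*, and *Hspa1a* and *Hspa1b* stay under 3 CPM.

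*Hsp90aa1* codes for the inducible cytosolic Hsp90α, on chromosome 12 (110691036 to 110696395, minus strand). Its level was 6594, 4954 and 6060 CPM in control replicates 1, 2 and 3 and 8041, 8275 and 8295 CPM with PhenDC3. Every PhenDC3 library lay above every control, and the PhenDC3 libraries were close together (8204 ± 141.1, SD, n = 3) where the controls were spread (5869 ± 836.3). The log2 fold change was 0.48 ± 0.12 (SE; adjusted p = 0.0153, edgeR), a rise of 1.40-fold. Leaving out PhenDC3 replicate 1 took the adjusted p to 0.0532 at a log2 fold change of 0.50, and the gene was called in the other 5 fits that left out a library.

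*Hsp90ab1*, the constitutive partner that codes for Hsp90β, lies on chromosome 17 (45567778 to 45573261, minus strand). It had 7507, 5746 and 8078 CPM in control and 7082, 6208 and 6934 CPM with PhenDC3. The PhenDC3 values fell inside the range of the controls, and the log2 fold change was -0.08 ± 0.14 (adjusted p = 0.699). Its sign turned to 0.02 without control replicate 3 and to 0.08 when library totals alone were used. The annotated transcripts of the 2 genes shared 0% of their 50-base windows, so that reads of that length are told apart.

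Within a library, the ratio of *Hsp90aa1* to *Hsp90ab1* counts does not depend on the scaling between libraries. It was 0.878, 0.862 and 0.750 in the controls and 1.14, 1.33 and 1.20 with PhenDC3. The α transcript was thus counted less often than the β transcript in all 3 controls and more often in all 3 PhenDC3 libraries, with no overlap. The mean log2 ratio rose by 0.56, from 0.486 to 0.609 with any 1 library left out, and an exact two-sided permutation test gave p = 0.1, the smallest value that 3 against 3 libraries allow (adjusted p = 0.3 over the 3 pairs compared here).

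**Figure D2:**
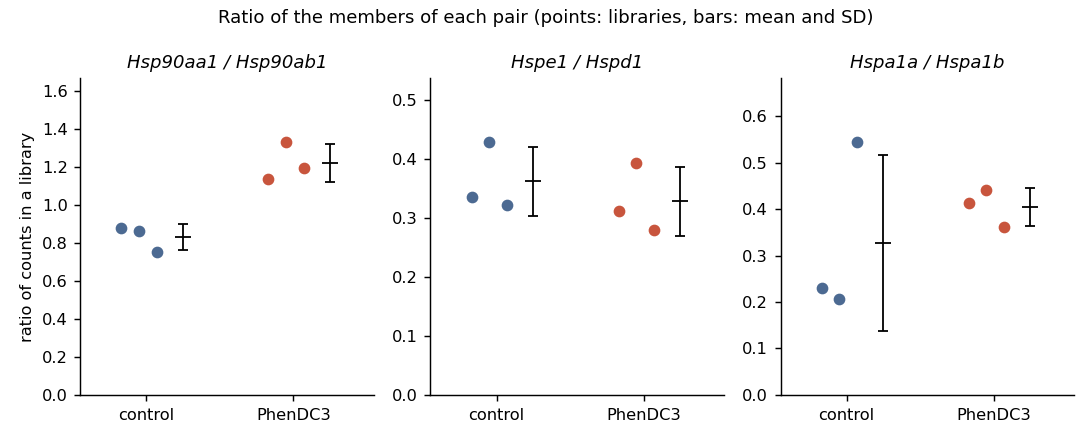
Ratio of counts within each library (vertical axes, starting at 0) for the 3 pairs of genes, with control in blue, PhenDC3 in red and mean and SD as bars. The *Hsp90aa1* to *Hsp90ab1* ratio lies between 0.750 and 0.878 in control and between 1.14 and 1.33 with PhenDC3, while the other pairs overlap.

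*Hspa8* codes for the constitutive Hsp70 of the cytosol (Hsc70), on chromosome 9 (40801276 to 40805202, plus strand). Its level was 5869, 5109 and 6050 CPM in control and 5260, 4537 and 4251 CPM with PhenDC3. PhenDC3 replicate 1 lay above control replicate 2, so the conditions overlapped, and the log2 fold change of -0.28 ± 0.12 was not called (adjusted p = 0.106). *Hspa8* and the 2 Hsp90 genes together supplied 1.56% to 1.87% of all counts in the control libraries and 2.03% to 2.14% in the PhenDC3 libraries before scaling. With the scaling factors, *Hsp90aa1* had a log2 fold change above 0 (0.48), while those of *Hspa8* (-0.28) and *Hsp90ab1* (-0.08) were below 0.

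*Hspa1a* and *Hspa1b*, the heat-inducible Hsp70 copies, lie next to each other on chromosome 17 with start sites 12918 bases apart, at 34969359 to 34972156 and 34956429 to 34959238, both on the minus strand. *Hspa1a* had 17, 11 and 24 counts in control and 31, 23 and 17 with PhenDC3, and *Hspa1b* had 74, 53 and 44 in control and 75, 52 and 47 with PhenDC3. The counts overlapped for both genes. Log2 fold changes were 0.30 ± 0.38 (adjusted p = 0.570) and -0.11 ± 0.25 (adjusted p = 0.757), and the summed counts of the pair gave -0.0036 ± 0.23 (adjusted p = 0.992), with 2.92 to 3.29 CPM in control and 2.32 to 3.68 CPM with PhenDC3. At this depth a change of the pair smaller than its spread was not detectable. Both levels are uncertain one by one, since 58.8% of the 50-base windows of the *Hspa1a* transcript also occur in *Hspa1b* and 62.3% of those of *Hspa1b* in *Hspa1a*, and how the counting treated reads that match both is not given in the sources used here.

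The copies also share their promoters. The RefSeq windows (build GRCm38, 250 bases before to 50 after the start, minus strand) lie at chr17:34972107-34972406 for *Hspa1a* and chr17:34959189-34959488 for *Hspa1b*, and 296 of their 300 bases are identical (98.7%). They are shown because these inducible genes stayed near the bottom of the expressed range, with the only GAA and TTC pair (GAANNTTC or TTCNNGAA) in capitals:

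Hspa1a promoter: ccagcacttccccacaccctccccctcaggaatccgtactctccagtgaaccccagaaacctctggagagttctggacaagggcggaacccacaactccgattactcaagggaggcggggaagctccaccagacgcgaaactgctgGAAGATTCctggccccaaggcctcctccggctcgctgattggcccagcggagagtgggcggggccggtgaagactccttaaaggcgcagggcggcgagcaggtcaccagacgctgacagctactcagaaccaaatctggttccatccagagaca

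Hspa1b promoter: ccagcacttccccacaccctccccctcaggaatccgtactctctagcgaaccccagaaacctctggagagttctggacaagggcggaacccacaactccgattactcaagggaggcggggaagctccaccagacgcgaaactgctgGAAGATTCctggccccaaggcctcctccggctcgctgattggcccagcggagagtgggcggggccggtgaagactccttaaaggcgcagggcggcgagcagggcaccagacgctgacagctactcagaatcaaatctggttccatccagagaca

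In both, the pair covers bases -104 to -97 from the start site, counted so that -1 is the last base before it. Such a pair occurred in 15.1% of all 32851 promoter windows of the table. An exact array of 3 alternating triplets, looked for on both strands and absent from these windows, occurred in 0.603%. Arrays with a mismatched base were not looked for in any window, so their presence is not excluded here. The search for the shorter pair was added after the data had been seen.

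Co-chaperones of Hsp70 among the 10 showed no called change in the fit with scaling factors and no block. *Hsph1* codes for Hsp110, which exchanges the nucleotide of Hsp70, and lies on chromosome 5 (149616843 to 149636498, minus strand). It had 178.6, 146.1 and 188.3 CPM in control and 238.7, 216.7 and 184.5 CPM with PhenDC3, where replicate 3 fell within the controls. The log2 fold change was 0.32 ± 0.14 (adjusted p = 0.105), and with library totals alone it became 0.48 and was called (adjusted p = 0.0203). *Dnajb1*, which codes for the J-domain protein Hsp40 (chromosome 8, 83608175 to 83612653, plus strand), had 53.0, 52.6 and 53.3 CPM in control and 58.2, 52.6 and 52.3 CPM with PhenDC3. Its log2 fold change of 0.04 ± 0.10 (adjusted p = 0.795) was nearest to 0 of the 10 genes, and it turned to -0.01 without PhenDC3 replicate 1.

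The *Hsph1* window at chr5:149636266-149636565 (minus strand) is shown because it holds an array of 3 alternating triplets, in capitals, at bases 16 to 28 after the start:

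Hsph1 promoter: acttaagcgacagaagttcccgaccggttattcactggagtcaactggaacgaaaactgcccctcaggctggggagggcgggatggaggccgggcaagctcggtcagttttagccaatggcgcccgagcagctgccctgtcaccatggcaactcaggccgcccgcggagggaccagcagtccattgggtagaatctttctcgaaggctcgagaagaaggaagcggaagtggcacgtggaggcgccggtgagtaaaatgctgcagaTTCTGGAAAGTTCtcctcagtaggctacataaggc

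From the other annotated start, which lies upstream, the same array is at 37 to 49.

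*Hspd1* and *Hspe1* code for the mitochondrial chaperonin Hsp60 and its lid Hsp10, and lie head to head on chromosome 1, *Hspd1* at 55077833 to 55088243 on the minus strand and *Hspe1* at 55088148 to 55091317 on the plus strand. Their nearest annotated starts are 95 bases apart and the transcribed regions overlap there. The library kit kept the strand, but the strand setting of the counting is not given in the sources used here. *Hspd1* had 1616, 1274 and 1445 CPM in control and 1278, 1151 and 1231 CPM with PhenDC3. Its PhenDC3 replicate 1 lay just above control replicate 2, and the log2 fold change was -0.24 ± 0.12 (adjusted p = 0.139). *Hspe1* had 542.0, 547.1 and 465.2 CPM in control and 398.0, 453.4 and 343.9 CPM with PhenDC3. All PhenDC3 libraries lay below all controls, and the log2 fold change of -0.38 ± 0.13 missed the threshold by a small margin (adjusted p = 0.0509). TMM scaling (0.0428), no filter on low counts (0.0498) and DESeq2 (0.0317) each put *Hspe1* past the threshold, as did leaving out control replicate 3 (0.0270) or PhenDC3 replicate 2 (0.0343), whereas library totals alone did not (0.244). The ratio of *Hspe1* to *Hspd1* counts was 0.335, 0.429 and 0.322 in control and 0.311, 0.394 and 0.279 with PhenDC3, overlapping ranges with a log2 difference of -0.15 (exact two-sided permutation p = 0.5).

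The region around the starts of both genes is shown as the *Hspe1* window, chr1:55087898-55088197 on the plus strand, since it held the longest array of triplets among the windows of the 10 genes:

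Hspe1 promoter: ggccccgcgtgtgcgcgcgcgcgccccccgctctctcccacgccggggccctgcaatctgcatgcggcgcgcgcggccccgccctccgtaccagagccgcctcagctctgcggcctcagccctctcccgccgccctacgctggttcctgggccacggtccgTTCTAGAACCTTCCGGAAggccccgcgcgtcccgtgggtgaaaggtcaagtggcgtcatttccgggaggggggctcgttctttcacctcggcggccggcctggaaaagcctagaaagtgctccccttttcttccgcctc

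The capitals mark 4 alternating triplets at bases -89 to -72 from the *Hspe1* start. Read from the other strand, the same bases lie at -144 to -127 of the more downstream *Hspd1* start, whose window (chr1:55087883-55088182) also held a run of G-tracts (4 tracts of at least 3 G with loops of 1 to 7 bases) at 30 to 50 after the start. A run of this kind on either strand occurred in 18.6% of all windows. The content of G and C was 71.0% in the *Hspe1* window and 73.3% in that of *Hspd1*, beside a median of 52.7% over all windows. The window of the other annotated *Hspd1* start, which lies upstream (chr1:55088194-55088493), held no array of triplets, no pair and no run of G-tracts.

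*Hspb1* codes for Hsp27 (Hsp25 in mouse), a small heat shock protein, on chromosome 5 (135887919 to 135889563, plus strand), and fell more than any other of the 10 genes. It had 250.9, 348.1 and 344.5 CPM in control and 195.7, 204.3 and 179.2 CPM with PhenDC3. Control replicate 1 lay apart from the other controls but still above all PhenDC3 libraries. The log2 fold change was -0.70 ± 0.15 (adjusted p = 0.00575), a level 0.614 times that of control, and the gene was called in all 11 alternative fits, at log2 fold changes from -0.85 to -0.55.

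The *Hspb1* window, chr5:135887669-135887968 on the plus strand, is given as that of the gene that fell most:

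Hspb1 promoter: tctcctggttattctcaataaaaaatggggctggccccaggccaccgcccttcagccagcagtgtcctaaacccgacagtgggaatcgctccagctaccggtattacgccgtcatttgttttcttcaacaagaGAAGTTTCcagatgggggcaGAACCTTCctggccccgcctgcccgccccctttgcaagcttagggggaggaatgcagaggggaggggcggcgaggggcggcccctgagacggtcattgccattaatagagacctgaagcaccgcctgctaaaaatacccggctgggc

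It held a GAA and TTC pair at -117 to -110 and another at -97 to -90, in capitals, and neither 3 alternating triplets without mismatch nor a run of G-tracts. Windows were at hand for 7 of the 10 genes, 10 windows in all. An exact array of 3 triplets was found for 3 genes (*Hsph1*, *Hspd1* and *Hspe1*), a pair for 6 and a run of G-tracts for 1 (*Hspd1*), and of the called genes only *Hspb1* had a window.

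**Figure D3:**
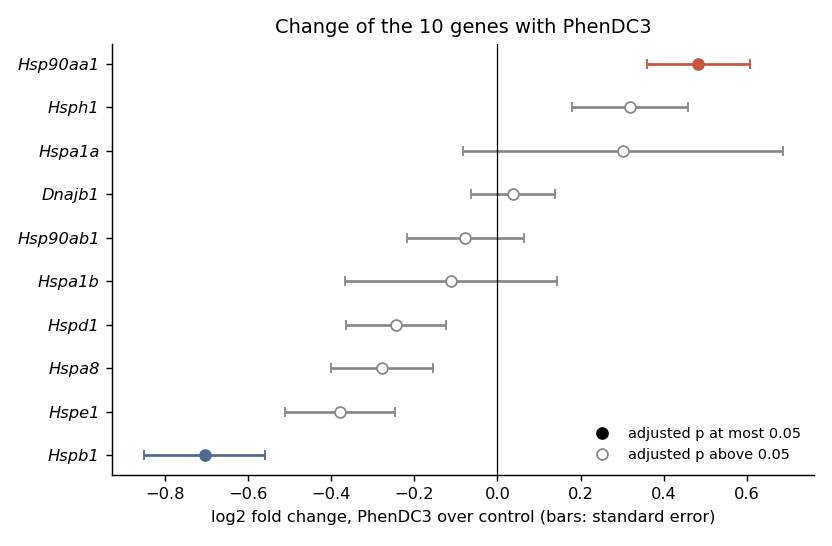
Log2 fold change of PhenDC3 over control (horizontal axis) of the 10 genes with the standard error as bars, filled where the adjusted p was at most 0.05. *Hsp90aa1* at 0.48 and *Hspb1* at -0.70 are filled, and *Hspa1a*, with 11 to 31 counts, has the widest bar.

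The wider chaperone network was read from 10 lists with 132 genes, of which 122 were tested. In these lists 11 genes rose (9.02%) and 28 fell (23.0%), beside 18.0% and 18.7% of all genes, and the median log2 fold change was -0.14. With library totals alone the split was 21 rises (17.2%) and 14 falls (11.5%), where 25.6% of all genes were higher and 12.1% lower. The share of rises was thus below that of all genes under both scalings, and the share of falls was above it only with the scaling factors. Leaving out PhenDC3 replicate 1 or 3 left 15 falls (12.1%, beside 11.4% of all genes in that fit) or 16 (12.9%, beside 13.2%). Leaving out PhenDC3 replicate 2 left 19 (15.3%, beside 14.4%). Without a control library the falls were 18.0% to 24.2%, beside 14.9% to 19.1% of all genes. DESeq2 gave 23.2% beside 16.9%, and the replicate block 38.5% beside 26.4%. The number of rises ranged from 9 to 13 over the 6 fits that left out a library.

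Of 16 Hsp90 co-chaperones, 8 fell, where 18.7% of all genes did, and 0 rose in edgeR, with a median of -0.31. DESeq2 called 9 lower and 0 higher, and at an unadjusted p under 0.05 edgeR had 1 higher. *Ppid* (cyclophilin 40, an isomerase that binds Hsp90) went from 263.4 ± 28.8 to 145.9 ± 6.48 CPM, a log2 fold change of -0.85 ± 0.12 (adjusted p = 0.000855). *Fkbp5* (FKBP51, which acts on steroid receptor complexes) went from 291.0 ± 17.0 to 165.7 ± 11.5 CPM, at -0.81 ± 0.11 (adjusted p = 0.000772). The others called lower were *Nudc*, *Cdc37* (the adaptor for kinases), *Cacybp*, *Ppp5c*, *Sugt1* and *Ahsa1* (the activator of the Hsp90 ATPase), from -0.60 to -0.30. The count fell to 5 without control replicate 1, PhenDC3 replicate 1 or PhenDC3 replicate 3, where 14.9%, 11.4% and 13.2% of all genes were lower. With library totals alone 4 were lower, beside 12.1% of all genes, and 1 was called higher, as was 1 without control replicate 1. *Hsp90aa1* thus rose in the same libraries in which these 8 co-chaperones fell.

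Partners of Hsp70 gave a smaller count. Of all genes 18.0% rose and 18.7% fell in edgeR, and 16.2% and 16.9% in DESeq2. Among 11 cofactors, 4 fell and 0 rose in edgeR and in DESeq2, with 0 rises also at an unadjusted p under 0.05 (median -0.26): *Hspbp1*, a nucleotide exchange factor, at -0.77 ± 0.17 (adjusted p = 0.00706), *Bag3*, which links Hsp70 to autophagy, at -0.46 ± 0.14 (adjusted p = 0.0305), *Bag4*, and *Stip1* (Hop), which bridges Hsp70 and Hsp90. This count was 1 with library totals alone (12.1% of all genes were lower). It was 1 or 2 without control replicate 1 or any 1 of the PhenDC3 replicates (11.4% to 14.9% of all genes). Of 25 J-domain genes tested, 3 rose and 2 fell (median 0.17). The rises were *Dnaja4* from 1.02 to 2.66 CPM (1.37 ± 0.24, adjusted p = 0.00265), *Dnajc6*, the auxilin that uncoats clathrin vesicles, from 32.2 to 70.0 CPM (1.12 ± 0.28, adjusted p = 0.0124) and *Dnajc18*, and the falls were *Dnajc17* (-0.65 ± 0.13, adjusted p = 0.00592) and *Dnajc24* (-0.47 ± 0.16, adjusted p = 0.0445). With library totals alone 10 J-domain genes were called higher and 1 lower, beside 25.6% and 12.1% of all genes. Without control replicate 3, 5 were higher (18.9% of all genes). Without control replicate 2 or any 1 of the PhenDC3 replicates, 1 was lower (11.4% to 16% of all genes). None of the 5 other Hsp70 and Hsp110 genes tested was called by edgeR or DESeq2 (0 higher and 0 lower in both), 2 had an unadjusted p under 0.05 in edgeR, both lower, and 1 was called lower without control replicate 3. The gene with most counts, *Hspa4*, had 950.3 ± 81.5 and 791.7 ± 50.1 CPM (log2 fold change -0.26 ± 0.11, unadjusted p = 0.0438 and adjusted p = 0.0964 in edgeR).

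Of 8 small heat shock genes other than *Hspb1*, 4 were tested and 3 rose: *Hspb8*, a partner of *Bag3*, from 24.5 ± 1.63 to 80.6 ± 19.0 CPM (log2 fold change 1.72 ± 0.17, adjusted p = 0.000181), *Cryab* (αB-crystallin) from 4.76 ± 0.916 to 15.4 ± 1.72 CPM (1.70 ± 0.18, adjusted p = 0.000249), and *Hspb2*, the neighbour of *Cryab*, from 1.94 to 4.47 CPM (1.20 ± 0.25, adjusted p = 0.00622). *Hspb6* had 3.08 and 1.94 CPM and was not called (log2 fold change -0.66 ± 0.60, adjusted p = 0.412), though it was lower without control replicate 3. The 3 rises were called in each fit that left out a library and with library totals alone.

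Mitochondrial chaperones and proteases fell in 7 of 13 genes in edgeR and in DESeq2, where 18.7% and 16.9% of all genes fell. Rises numbered 0 in both, 0 also at an unadjusted p under 0.05 in edgeR, and the median was -0.38. The inner-membrane import factor *Dnajc19* went from 39.4 ± 11.3 to 24.5 ± 2.58 CPM (-0.68 ± 0.20, adjusted p = 0.0235) and the protease *Clpp* from 74.6 ± 14.7 to 46.6 ± 5.04 CPM (-0.68 ± 0.15, adjusted p = 0.00883). *Trap1*, the mitochondrial Hsp90, *Dnajc15*, the nucleotide exchange factor *Grpel1*, *Clpb* and *Dnaja3* were lower too, while *Hspa9*, the mitochondrial Hsp70, had 848.9 and 768.8 CPM and was not called (adjusted p = 0.295). Between 5 and 7 were lower when 1 library was left out (11.4% to 19.1% of all genes were), and 4 with library totals alone (12.1% of all genes). The chaperonin TRiC, which folds actin and tubulin, and its helper prefoldin gave 4 falls and 0 rises in 14 genes with either tool (0 rises also at an unadjusted p under 0.05), *Cct5* (-0.49 ± 0.11, adjusted p = 0.00829), *Cct4* (-0.43 ± 0.11, adjusted p = 0.0141), *Cct7* and *Pfdn2*, with a median of -0.23. That count was 2 without PhenDC3 replicate 1 (11.4% of all genes were lower) and 1 without PhenDC3 replicate 3 (13.2%). With library totals alone 1 gene fell and 1 rose, beside 12.1% and 25.6% of all genes.

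The heat shock factors *Hsf1* (38.1 and 34.0 CPM, adjusted p = 0.431) and *Hsf2* (49.0 and 52.8 CPM, adjusted p = 0.437) were not called, nor was *Hsbp1*, which binds HSF1 (74.0 ± 9.90 and 88.7 ± 12.5 CPM, log2 fold change 0.26 ± 0.14, adjusted p = 0.184). The list's 1 rise, *Hsf5* (0.479 to 1.45 CPM), and 1 fall, *Hsf4* (0.455 to 0.137 CPM), came from genes near 1 CPM or under, and the fall of *Hsf4* was lost without any 1 of the PhenDC3 replicates and with DESeq2. These 2 were chosen for mention after their values were seen. In the endoplasmic reticulum 2 of 21 genes rose, *Serpinh1*, the collagen chaperone (0.83 ± 0.26, adjusted p = 0.0322), and *Dnajc1* (0.68 ± 0.16, adjusted p = 0.0101), and 1 fell, *Sil1* (-0.70 ± 0.15, adjusted p = 0.00781), while *Hspa5* (BiP) had 514.4 and 538.6 CPM and *Hsp90b1* (Grp94) 820.2 and 918.3 CPM, neither called. Rises numbered 1 to 4 and falls 1 to 3 when 1 library was left out, with the rises moved by control replicate 1 and PhenDC3 replicates 1 and 3 and the falls by control replicate 3. Of 7 ubiquitin and damage genes, *Hdac6*, which carries aggregates along microtubules, rose (0.77 ± 0.14, adjusted p = 0.00354), as did *Zfand2a*, a heat- and arsenite-inducible gene (0.56 ± 0.11, adjusted p = 0.00415), and *Hmox1*, heme oxygenase, fell (-0.58 ± 0.14, adjusted p = 0.0131), though not without PhenDC3 replicate 1 (adjusted p = 0.0635).

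**Figure D4:**
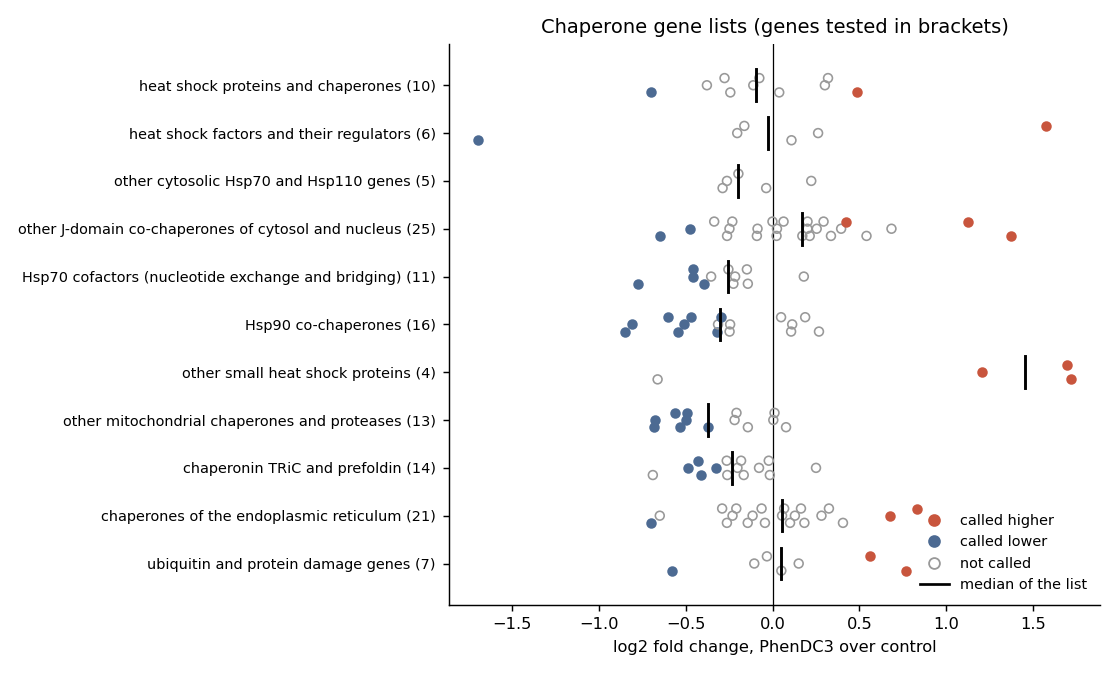
Log2 fold change of PhenDC3 over control (horizontal axis) of each gene tested in the 10 genes examined (top row) and in the 10 other chaperone lists, with called genes filled in red (higher) or blue (lower) and the median of each list as a bar. Hsp90 co-chaperones and mitochondrial genes have blue points and no red ones, and 3 of 4 other small heat shock genes are red.

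Replication origins near these genes were read from SNS-seq peaks that overlapped 2 kb on either side of an annotated start. The lists of control replicates 1, 2 and 3 and PhenDC3 replicates 1 and 2 placed a peak near 10, 8, 4, 10 and 5 of the 10 genes. Among all 25755 annotated genes the shares were 49.8%, 46.9%, 30.5%, 50.7% and 36.2%, and among 13839 genes with enough counts for the test 67.4%, 64.8%, 39.4%, 64.6% and 46.2%. The lists held 120898, 81221 and 79384 peaks in control and 144116 and 102407 with PhenDC3. With 3 lists against 2, the conditions were not tested against each other, and the values are a description. The files used here give no reads per peak, and how deeply each peak was sequenced is therefore unknown. Fold enrichment is the ratio of a peak to the matching RNase-treated control, in which the RNA primers that protect nascent strands were removed. A peak in all 3 control lists was found for 4 of the 10 genes (8 without control 3), beside 24.8% of all and 33.6% of tested genes, and in both PhenDC3 lists for 5 (10 without PhenDC3 2), beside 32.3% and 41.7%.

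*Hspa8*, *Hsp90ab1* and *Dnajb1* had a peak in all 5 lists, as did 3603 of the 13839 genes tested. At *Hspa8* a summit recurred at -522, -522 and -520 bases from the start in control and at -521 and -498 with PhenDC3, with fold enrichments of 5.94, 5.53 and 3.79 in control and 7.15 and 5.94 with PhenDC3. A further summit stood at -119 to -64 in all 5 lists, at 3.82- to 4.76-fold. At *Hsp90ab1* a summit lay 254 to 220 bases before the start in each list, and its fold enrichment was 4.11, 4.93 and 3.58 in control and 11.4 and 6.76 with PhenDC3. At this summit, picked after its values were seen, the PhenDC3 values were above the control ones. Each condition had 1 RNase-treated sample as background, and a difference in that sample cannot be told apart from one in the peak. Another summit, 537 to 583 bases into the gene, was 7.33- and 8.29-fold in control 1 and 2 and 8.80- and 5.05-fold with PhenDC3, and one at 841 to 845 bases (5.19- and 5.80-fold) was listed in control 1 and 2 alone. *Dnajb1* shared a peak about 2 kb upstream, at the edge of the window. Its summits were at -2011, -1863 and -1919 in control (5.52-, 5.52- and 2.51-fold) and -2010 and -1842 with PhenDC3 (4.81- and 3.96-fold). In control 3 its −log10 p was 5.06, where the lowest of that list was 5.02. With 1 kb on either side, 2 of the 10 genes had a peak in every list (14.3% of all genes).

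*Hsp90aa1* had a summit 814 to 835 bases into the gene in 4 lists, all but that of control 3, at 3.99- and 4.35-fold in control and 3.66- and 2.97-fold with PhenDC3. A peak at 181 bases was 10.9-fold in control 1, and its counterpart at 167 bases was 4.47-fold in PhenDC3 1. *Hspb1* had peaks in 4 lists as well, at 55 bases in control 2 (3.50-fold) and 70 bases in PhenDC3 2 (4.95-fold), and at 1323 bases in control 1 (4.39-fold) and 1317 bases in PhenDC3 1 (7.15-fold). Both genes had peaks in both PhenDC3 lists, and their transcripts moved in opposite directions. Whether peaks and transcript levels are linked was not tested.

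*Hspd1* and *Hspe1* were served by the same peaks, found in control 1 and 2 and PhenDC3 1. One of them, at -20 and -14 bases from the *Hspe1* start (4.87- and 5.85-fold), covered the *Hspe1* start, but no annotated *Hspd1* start, in control 1 and 2 and had no counterpart in control 3 or in the PhenDC3 lists. The copies *Hspa1a* and *Hspa1b* each had a strong peak within the gene in control 1, at 1463 bases (12.3-fold) and 1490 bases (10.8-fold), and a weaker one at the matching place in PhenDC3 1, at 1452 bases (4.62-fold) and 1485 bases (4.47-fold). *Hspa1a* also had a peak near its start in all 3 control lists, with summits at 89, 89 and 57 bases (6.62-, 4.25- and 5.10-fold). The PhenDC3 lists held no peak there. This place was picked after its values were seen, and the difference was not tested. Since the copies share much of their sequence, the reads behind all these peaks cannot be assigned with certainty. *Hsph1* and *Hspa1b* had peaks only in the lists of control 1 and PhenDC3 1, the longest of each condition.

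**Figure D5:**
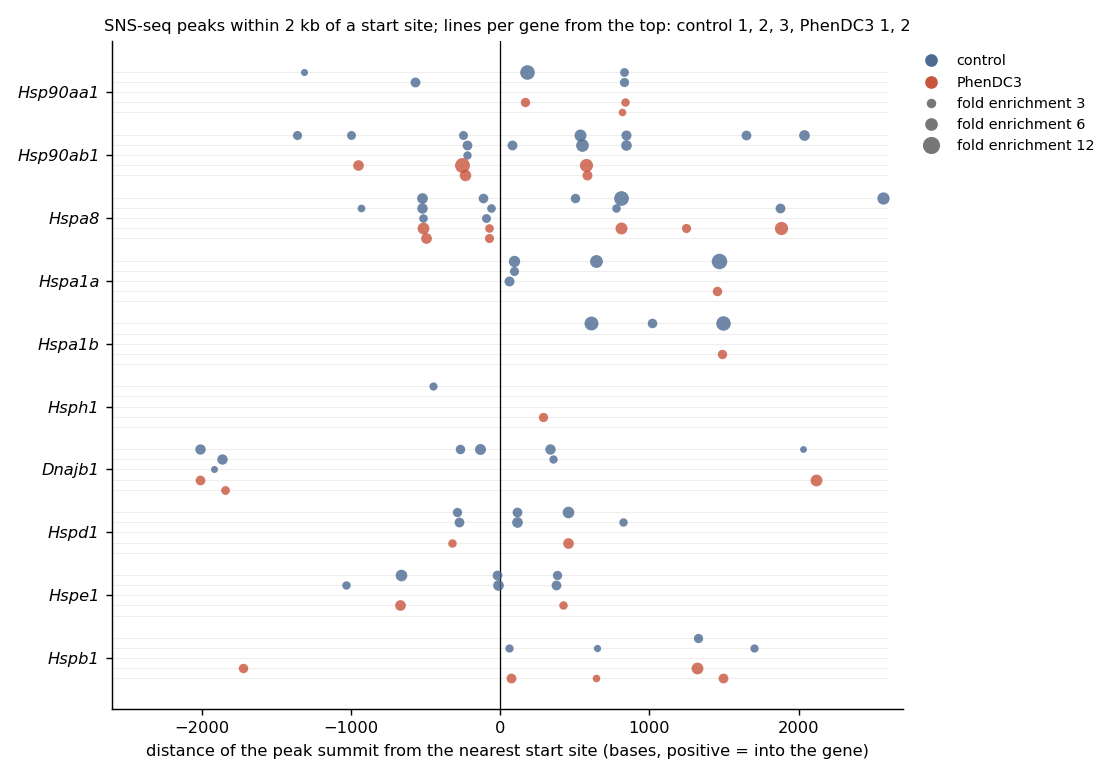
Position of SNS-seq peak summits (horizontal axis, bases from the nearest annotated start, positive into the gene) whose peak overlaps 2 kb on either side of a start of the 10 genes, with control lists in blue, PhenDC3 lists in red and point area proportional to fold enrichment. *Hspa8* and *Hsp90ab1* show summits at matching distances in all 5 lists, and the *Hsph1* rows hold 1 peak in each of 2 lists.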

How the data were processed

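RNA-seq and SNS-seq of CGR8 cells were taken from the processed files. The deposited RNA-seq counts are raw counts per gene that the authors obtained with TopHat (2.1.1), Bowtie2 (2.2.9) and HTSeq-count (0.6.1p1). The SNS-seq lists, on mm10 (GRCm38), are narrow peaks of MACS2 (2.1.0) that the authors called per replicate, with the RNase-digested sample of that condition as background, and kept where a SICER region overlapped. The deposited lists give each peak's fold enrichment (a ratio) and −log10 p. The deposited DESeq2 table (mean signal, log2 fold change, SE and p-values) and normalized pseudo-counts were not used.

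Counts were tested with edgeR 4.0.16 in R 4.3.3 (quasi-likelihood, robust, relative log expression, filterByExpr, no block), PhenDC3 against control, 3 libraries each, with Benjamini-Hochberg adjustment over 13972 genes and a threshold of 0.05. DESeq2 1.42.0, TMM, library totals alone, no filter, a replicate block and the omission of each library were alternatives. Levels are normalized CPM, or CPM per kb of RefSeq exon. Start sites are those of curated RefSeq transcripts (GRCm38.p6), and promoter windows come from a RefSeq table of that build. The 10 genes and the lists were chosen with earlier results of these data known. All 10 genes are named. From each list up to 2 rises and 2 falls of largest size with at least 1 CPM are given with their statistics, or else the gene with most counts, and other genes were chosen after their values were seen. Replicates are numbered but not described further for RNA-seq, so p-values measure the spread between these libraries only. The edgeR script was tested on simulated data.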

Additional observations from a re-analysis of the deposited data

How the results depend on the processing

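Counts of calls moved with the setting. With library totals alone, a scaling added after seeing the data, 1688 genes were lower (12.1%) and 2 of the 10 genes were higher (25.6% of all genes were). In the chaperone lists 21 genes were then higher (17.2%) and 14 lower (11.5%). Of the 10 genes, 2 were lower under TMM, without a filter and with DESeq2 (*Hspe1* besides *Hspb1*), where 19.3%, 13.9% and 16.9% of all genes were. Deviations from the condition means correlated between conditions at 0.66 and 0.52 for replicate numbers 2 and 3. Across these 2 numbers the correlations were -0.55 and -0.58. Number 1 was unclear, since PhenDC3 replicate 1 correlated at 0.0945 with control replicate 1 and at 0.1001 with control replicate 3. The other libraries correlated best with their own number. The fit with no block leaves out any effect shared by libraries of 1 number. With the replicate block, 7489 genes were called (3797 higher), at 27.2% of all genes higher and 26.4% lower. Of the 10 genes, 6 were called (2 higher and 4 lower, adding *Hsph1*, *Hspa8*, *Hspd1* and *Hspe1*). In the lists 68 genes were called (21 higher, 17.2%, and 47 lower, 38.5%).

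Leaving out 1 library gave 3332 to 5416 genes called (1623 to 2727 lower, 11.4% to 19.1% of all genes). It gave 1 to 3 of the 10 genes (0 to 1 higher, 1 to 2 lower) and 24 to 43 genes of the lists (15 to 30 lower, 12.1% to 24.2%). The sum of *Hspa1a* and *Hspa1b* counts, a different quantity from *Hspa1a* alone (0.30), gave -0.0036. Signs reversed for values near 0: *Hspa1b* to 0.04 with library totals alone and *Hsp90ab1* to 0.0805 with library totals alone. With 1 library left out, *Hspa1b* ranged from -0.2692 to 0.034, *Hsp90ab1* from -0.2143 to 0.0185 and *Dnajb1* from -0.0136 to 0.0649. The cause of these shifts was not tested. Of 112 alternative values of the 10 genes, 95 kept direction and side of the threshold. Of 242 for 22 named list genes, 216 did, 24 lost and 2 gained a call, and 0 reversed.

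Under stricter settings the share of all annotated genes with a peak fell too. In PhenDC3 1, 6 of the 10 genes had a peak with 2 kb upstream only (32.9% of all genes) and 6 with 1 kb on either side (43.2%), from 10 (50.7%). In PhenDC3 2, 3 had one with 2 kb upstream only (21.9%) and 3 with peaks above the median −log10 p (24.7%), from 5 (36.2%). In control 3, peaks above the median left 1 (19.8%), from 4 (30.5%). A peak in both PhenDC3 lists was found for 5 genes (32.3% of all genes), and for 5 to 10 when a list was left out. Under each of these 3 settings the number was 3. The shares of all genes were then 18.0% with 2 kb upstream only, 25.2% with 1 kb on either side and 19.2% above the median. A peak in all 3 control lists was found for 4 genes (24.8% of all genes), 1 with peaks above the median (15.2%), and 4 to 8 when a list was left out. With peaks above the median, genes with a peak in every list fell from 3 (19.3%) to 1 (9.65%). Depth limited *Hspa1a* and *Hspa1b*, at 11 to 75 counts.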
